A study of Mus musculus with 4 samples.

Results

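A group of 8 growth factor genes that tumour myeloid cells are known to secrete were followed in sorted myeloid-derived suppressor cells (MDSCs), immature granulocytic and monocytic cells that dampen T cell responses. They were taken by name, for their role, but with earlier results of these data known. They were the vascular growth factors Vegfa and Vegfb, the platelet-derived growth factor Pdgfb, Tgfb1 and the TGF-beta-induced matrix gene Tgfbi, the EGF receptor ligand Hbegf, the matrix protein Thbs1 and the cytokine Osm. All 8 were among the 17476 genes analysed, and all 8 passed the filter on low counts that left 14239 tested genes. The series compared MDSCs from mice with a mutated Trem2, a lipid-sensing receptor of myeloid cells, with wild-type (WT) MDSCs. Bone marrow of C57BL/6 (WT) or TREM2mut mice, the latter also labelled C57BL/6, was differentiated into MDSCs in culture. Both groups of cells then went into male NRG mice, which lack lymphocytes. The recipients, 6 weeks old when challenged, had carried subcutaneous TRAMP-C1 tumours, from a mouse prostate cancer line, for 4 weeks. Tumours were taken 6 h after injection and digested for 45 minutes, and CD45+, CD11B+, GR1+ cells were sorted. This gate does not separate the injected cells from myeloid cells of the host. The labels do not describe the Trem2 mutation further.

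Each genotype had 2 libraries, called here WT 1, WT 2, Trem2 mutant 1 and Trem2 mutant 3 after their columns, with 8037733 to 10306674 reads. No label ties a library to its own animal or culture, so the p-values reflect the spread between these libraries alone, and that spread may be technical. Trem2 itself had 406 and 477 reads in WT and 191 and 195 in mutant libraries (log2 fold change −1.14, SE 0.125, adjusted p = 0.00157). Of the gate's own genes, Ptprc (CD45) had 10242 to 12684 reads a library and did not pass the test, while Itgam (CD11b) was 1.52-fold higher in the mutant libraries (425 ± 8.21 to 648 ± 7.15 CPM, adjusted p = 0.00429). Of the GR1 antigens, Ly6g had 52 and 66 reads in WT against 1198 and 1143 in the mutant libraries, and Ly6c2 had 247 and 227 against 3159 and 2625. Xist had 2 and 3 reads in WT and 6928 and 9117 in the mutant libraries, and the Y-linked Kdm5d 374 and 365 against 51 and 55, so sex-linked transcripts moved with genotype. For every difference between the groups given here, genotype and the sex of the cells cannot be told apart. The share of Gm42418, a gene that collects ribosomal RNA reads, was 13.9% in Trem2 mutant 1 and 0.258% to 1.04% elsewhere.

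These factors work between cells. VEGF-A binds receptors on endothelial cells and drives vessel sprouting, while VEGF-B acts on a narrower receptor set. PDGF-B recruits pericytes and fibroblasts. TGF-beta is secreted in a latent form that has to be released, and thrombospondin, the Thbs1 product, is among the proteins that can release it, besides restraining endothelial growth through CD36 and CD47. HB-EGF is made as a membrane protein and cut loose by metalloproteinases. Oncostatin M signals through receptors that contain gp130 on stromal and endothelial cells. Tumour-infiltrating myeloid cells are well known sources of several of these, and hypoxia is a classical inducer of Vegfa.

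The bases just before the start sites of 3 of the genes are shown to set a gene that passed the test as higher in the mutant libraries (Vegfa) beside a pair that did not pass (Tgfb1 and Tgfbi). Whether the genes differed from each other in response was not tested. Each run holds the 250 bases before the RefSeq start (GRCm38.p6), 5′ to 3′ on the gene's strand: chr17:46032378-46032627 (minus) for Vegfa, chr7:25686752-25687001 (plus) for Tgfb1 and chr13:56609336-56609585 (plus) for Tgfbi. In the gene positions given below, Tgfbi starts at 56609523, before its RefSeq start, so the end of its stretch lies inside the gene. Capitals mark GC boxes, searched as GGGCGG on both strands.
Vegfa: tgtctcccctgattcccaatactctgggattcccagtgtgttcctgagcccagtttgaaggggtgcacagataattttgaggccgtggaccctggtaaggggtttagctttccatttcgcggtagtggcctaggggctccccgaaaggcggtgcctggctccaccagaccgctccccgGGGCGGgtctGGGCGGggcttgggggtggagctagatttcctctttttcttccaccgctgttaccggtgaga
Tgfb1: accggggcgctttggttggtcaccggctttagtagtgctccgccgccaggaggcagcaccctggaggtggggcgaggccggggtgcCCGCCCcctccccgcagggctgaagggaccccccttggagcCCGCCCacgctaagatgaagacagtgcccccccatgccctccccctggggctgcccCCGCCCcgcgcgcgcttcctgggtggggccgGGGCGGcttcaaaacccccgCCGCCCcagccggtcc
Tgfbi: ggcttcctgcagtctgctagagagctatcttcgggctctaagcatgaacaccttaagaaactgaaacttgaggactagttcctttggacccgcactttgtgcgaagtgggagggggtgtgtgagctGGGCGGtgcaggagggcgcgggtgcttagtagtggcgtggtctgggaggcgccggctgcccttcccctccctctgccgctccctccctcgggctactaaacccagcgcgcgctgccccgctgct
The Vegfa stretch held 2 GC boxes, 72 and 62 bases before the start, Tgfb1 held 5 and Tgfbi 1. Of 32851 mouse promoter stretches of the same length, 32.7% held at least 1. The core of the hypoxia response element (ACGTG, both strands, 16.6% of stretches) and the AP-1 site (TGANTCA, both strands, 6.75%) had no match in these 3. Bases farther from the starts were not searched, so elements lying there would be missed. A further RefSeq start of Vegfa lies inside the gene, which spans 46016993 to 46032369. The 250 bases before that start (chr17:46025164-46025413) are also within the gene and had 1 ACGTG match, 211 bases before the start. Whether this match acts on Vegfa was not tested. RefSeq entries were matched for 4 of the 8 genes, Vegfb being the other one. For Pdgfb, Hbegf, Thbs1 and Osm no entry was matched here. Whether RefSeq holds a start for these genes was not tested.

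Of the 8 genes, 4 were higher in the mutant libraries and 0 lower at an adjusted p under 0.05 (edgeR quasi-likelihood test, adjusted over all genes tested). Among all 14239 genes, 9.55% were higher and 3.6% lower. As the 8 genes were chosen with earlier results of these data known, setting them beside all genes is descriptive and tests nothing about the group. At an unadjusted p under 0.05, 4 were higher and 1 lower, and both DESeq2 and limma-voom called 4 higher and 0 lower. The 4 that rose were Thbs1, Osm, Vegfa and Hbegf. In each of them both mutant libraries lay above both WT libraries, as they did for 28.9% of all tested genes. The median log2 fold change of the 8 genes was 0.46, against −0.02 over all genes tested. The size of the increases depended on scaling. With library totals as the only scaling the median of all genes moved to −0.40, 2 of the 8 were higher (Thbs1 and Osm) and 1 lower (Tgfbi). Without WT 1 only Osm kept its call, and without WT 2 Thbs1, Osm and Vegfa did.

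**Figure D1:**
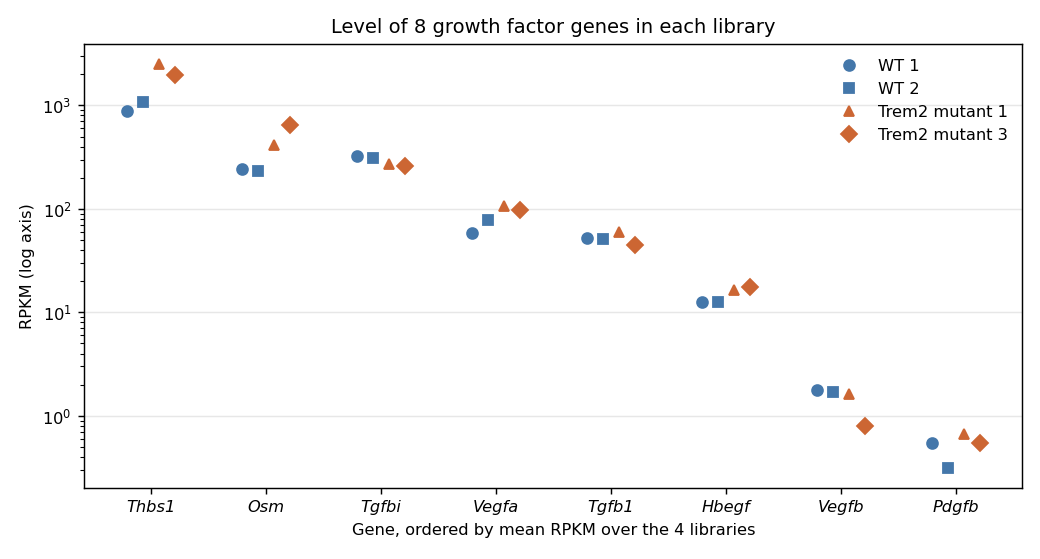
RPKM (TMM-scaled CPM per kilobase of exon, log axis) of the 8 growth factor genes in each of the 4 libraries, 1 point per library, with genes ordered by their mean. Thbs1 lies highest, at 889 to 2507 RPKM, and Pdgfb lowest, at 0.316 to 0.662 RPKM, and the mutant points of Thbs1, Osm, Vegfa and Hbegf lie above both WT points.

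Per length of exon, the 8 genes spanned more than 3 orders of magnitude on the RPKM scale. RPKM is the TMM-scaled read count relative to library size (CPM) divided by the kilobases of merged exon. Thbs1 was the most abundant, at 978 ± 127 RPKM in WT and 2236 ± 383 RPKM in mutant libraries (SD, n = 2 each). In WT Tgfbi (317 ± 5.27 RPKM) came before Osm (237 ± 6.02 RPKM), and in the mutant libraries their order was turned, with Osm at 534 ± 167 RPKM and Tgfbi at 266 ± 6.15 RPKM. Vegfa (68.4 ± 13.4 RPKM in WT) and Tgfb1 (51.9 ± 1.13 RPKM) lay near each other in WT, where 59.0 and 77.9 RPKM stood against 52.7 and 51.1 RPKM, a gap between the groups of values smaller than the SD of Vegfa. Hbegf stood at 12.5 ± 0.0873 RPKM in WT. Vegfb (1.73 ± 0.0404 RPKM) and Pdgfb (0.432 ± 0.165 RPKM) came last, with 12 to 26 reads a library. Within either genotype no neighbours in this order overlapped. A floor of 3 counts equalled 0.322 to 0.359 CPM, depending on the library. This floor, like the intervals of shares given next, covers counting error only.

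Thbs1 (ENSMUSG00000040152, GRCm38 chromosome 2, 118111876 to 118127133, plus strand) encodes a secreted matrix glycoprotein that binds CD36 and CD47. It had 49631 and 59248 reads in WT 1 and WT 2, and 127086 and 111040 in Trem2 mutant 1 and Trem2 mutant 3. That is 0.617% of all reads in WT 1 (95% Wilson interval 0.612 to 0.623) and 0.733% in WT 2 (0.728 to 0.739). In Trem2 mutant 1 it was 1.23% (1.23 to 1.24) and in Trem2 mutant 3 1.13% (1.12 to 1.14). By reads the gene ranked 8 and 6 of all genes in the WT libraries and 4 in both mutant libraries. On the CPM scale it went from 5399 and 6486 to 15224 and 11933, with no overlap between genotypes. The increase was 2.29-fold (log2 fold change 1.19, SE 0.177, adjusted p = 0.00524). Leaving out WT 1 ended the call (log2 fold change 1.06, adjusted p = 0.0948). With library totals alone it was 0.81 (adjusted p = 0.0043).

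A long noncoding gene on the opposite strand, Gm29233 (chromosome 2, 118123451 to 118124047), lies inside Thbs1 and shares 208 of its 281 exon bases with Thbs1 exons. It had 2200 and 2520 reads in WT and 5568 and 3967 in mutant libraries. Per length its reads were nearly as dense as those of Thbs1, with Thbs1 at 1.04, 1.09, 1.06 and 1.30 times the RPKM of Gm29233 in WT 1, WT 2, Trem2 mutant 1 and Trem2 mutant 3. Whether the counting used strand is not given, so reads of the pair cannot be told apart.

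Thbs2 and both thrombospondin receptors were higher as well. Of 3 tested thrombospondins, 2 were higher: Thbs1 and Thbs2, a related matrix protein with 19 and 21 reads in WT and 78 and 126 in mutant libraries. Thbs2 was 5.23-fold higher (2.18 ± 0.164 to 11.4 ± 2.97 CPM; SD, n = 2 each; adjusted p = 0.00211). Thbs3 did not pass (0.873 ± 0.158 and 1.54 ± 0.198 CPM). Both receptors rose. Cd47, the "do not eat me" signal that also binds thrombospondin, went from 489 and 499 CPM to 931 and 899 CPM (1.85-fold, adjusted p = 0.00105). Cd36, a scavenger receptor, went from 3.59 and 3.61 CPM to 9.46 and 7.74 CPM (2.38-fold, adjusted p = 0.0142). It did not pass with WT 1 left out (adjusted p = 0.0892) or with WT 2 left out (adjusted p = 0.0679), at an unchanged log2 fold change of 1.25. Among 70 listed genes with a mean of at least 5 CPM, the profiles closest to Thbs1 over the 4 libraries were those of Cd36 and Lif, at Euclidean distances of 0.196 and 0.231 between centred log2 CPM.

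Osm (ENSMUSG00000058755, chromosome 11, 4236420 to 4241026, plus strand) encodes oncostatin M, a cytokine of the IL-6 family. It had 5037 and 4829 reads in WT, and 7900 and 13788 in the mutant libraries. On the CPM scale the WT libraries were close together (548 and 529) and the mutant libraries were apart (946 in Trem2 mutant 1 and 1482 in Trem2 mutant 3). Both mutant values lay above both WT values. The gene was 2.26-fold higher (log2 fold change 1.17, SE 0.191, adjusted p = 0.00771). This was the one call of the 8 genes that held with each library left out, at log2 fold changes from 0.83 without Trem2 mutant 3 to 1.47 without Trem2 mutant 1. Without WT 1 or WT 2 the call held only narrowly (log2 fold changes 1.20 and 1.15). It also held with library totals alone (0.83, adjusted p = 0.00407). The closest profiles were those of Ltbp1 and Tgfbr3, at distances of 0.302 and 0.334.

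Within the IL-6 family 3 of 4 tested cytokines were higher, Osm, Lif and Il27. Lif, which signals through gp130 as Osm does, went from 6.00 ± 0.644 to 11.9 ± 1.15 CPM (1.98-fold, adjusted p = 0.0183), and Il27 from 4.86 ± 0.870 to 9.35 ± 0.156 CPM (1.92-fold, adjusted p = 0.0321). Neither Lif nor Il27 passed with WT 1 left out (log2 fold changes 0.88 and 0.77) or WT 2 left out (1.09 and 1.14). Il6 itself did not pass (1.96 ± 0.317 and 2.39 ± 0.344 CPM). Of 5 tested receptors of the family, 2 were higher. Il6ra, the IL-6 receptor, rose 1.24-fold (199 ± 0.663 to 247 ± 8.55 CPM, adjusted p = 0.0401). It did not pass when either WT library was left out (log2 fold change 0.31 in both), and scaling by library totals alone turned it to −0.06. Osmr, the oncostatin M receptor, had 4 reads in each WT library and 17 and 18 in the mutant libraries (4.44-fold, adjusted p = 0.0192). Leaving out WT 1, WT 2 or Trem2 mutant 1 ended the Osmr call at nearly the same log2 fold change (2.14, 2.15 and 2.12). Il6st, which encodes gp130, did not pass (30.3 ± 2.29 and 40.0 ± 4.35 CPM, adjusted p = 0.0703).

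Vegfa (ENSMUSG00000023951, chromosome 17, 46016993 to 46032369, minus strand), the main driver of vessel growth, had 2324 and 3049 reads in WT and 3796 and 3863 in mutant libraries. Scaled, these were 253 and 334 CPM in WT 1 and WT 2 against 455 and 415 CPM in Trem2 mutant 1 and Trem2 mutant 3. The WT libraries differed more from each other than the mutant libraries did, and the groups did not overlap. Vegfa was 1.48-fold higher (log2 fold change 0.57, SE 0.134, adjusted p = 0.0314). Leaving out WT 1, the lower of the WT libraries, ended the call (0.38, adjusted p = 0.203), and so did scaling by library totals alone (0.19, adjusted p = 0.337). Relative to the median of all genes under that scaling, Vegfa was at 0.59.

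Vegfb (ENSMUSG00000024962, chromosome 19, 6982473 to 6987651, minus strand) was barely detected. It had 26, 25 and 22 reads in WT 1, WT 2 and Trem2 mutant 1, and 12 in Trem2 mutant 3. Its log2 fold change of −0.52 had a 95% interval from −1.44 to 0.41 (adjusted p = 0.422), and was −0.06 without Trem2 mutant 3. The remaining VEGF ligand tested, Pgf (placental growth factor), had 24.0 and 26.5 CPM in WT and 20.1 CPM in both mutant libraries, below both WT values, but did not pass (log2 fold change −0.33, adjusted p = 0.118). Vegfa thus had 7.12 and 8.54 times the RPKM of Pgf in WT, and 15.3 and 14.0 times in mutant libraries.

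The receptors of VEGF went both ways. Nrp1, a co-receptor of VEGF-A, had 91 reads in each WT library and 260 and 222 in the mutant libraries, and was 2.76-fold higher (9.93 ± 0.0439 to 27.5 ± 5.15 CPM; SD, n = 2 each; adjusted p = 0.00186). Nrp2, its relative, was 1.36-fold lower (68.8 ± 2.70 to 50.6 ± 3.48 CPM, adjusted p = 0.0220). It did not pass with WT 1 left out (log2 fold change −0.48) or WT 2 left out (−0.40). Flt1 and Kdr, the signalling receptors of endothelial cells, were low. Flt1 had 16 to 32 reads and Kdr 15 to 29 reads a library, and neither passed (log2 fold changes 0.56 and 0.87).

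Hypoxia genes were listed beside Vegfa because oxygen lack induces it. Of 19 tested target genes of the hypoxia-inducible factors (HIF), 7 were higher, by 1.29-fold to 1.69-fold. Ero1l, an oxidase of protein folding, went from 148 and 167 CPM to 295 and 239 CPM, and Bnip3, a mitophagy receptor, from 39.3 and 46.5 CPM to 77.9 and 65.9 CPM. The glycolytic regulators Pfkfb3 (109 ± 19.7 to 152 ± 1.26 CPM) and Pfkfb4 (1.29-fold), Pgk1 (1.41-fold), Pdk1 (1.31-fold) and Mxi1 (1.43-fold) were the others. Aldoa (1469 ± 0.0128 and 1485 ± 117 CPM) and Ldha (465 ± 7.84 and 552 ± 25.4 CPM), the most abundant of the list, did not pass. None of the 7 passed with WT 1 left out (log2 fold changes 0.31 to 0.67) or with library totals alone (−0.01 to 0.37), and with WT 2 left out Pfkfb4 (0.36) and Pdk1 (0.37) did not. Of 8 tested genes of oxygen sensing, 1 was higher: Egln3, a HIF prolyl hydroxylase that is itself a HIF target, at 179 and 173 CPM in WT and 317 and 330 CPM in mutant libraries (1.84-fold, adjusted p = 6.59e-04). Hif1a did not pass (406 ± 21.5 and 499 ± 45.0 CPM, adjusted p = 0.0895). The profiles closest to Vegfa among the listed genes were those of Pfkfb3 and Bnip3, at distances of 0.119 and 0.212. Only listed genes were compared, many of them HIF targets, and the profiles closest to Hbegf were also HIF targets (Pdk1 and Pgk1). Whether hypoxia had a part in the level of Vegfa was not tested.

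**Figure D2:**
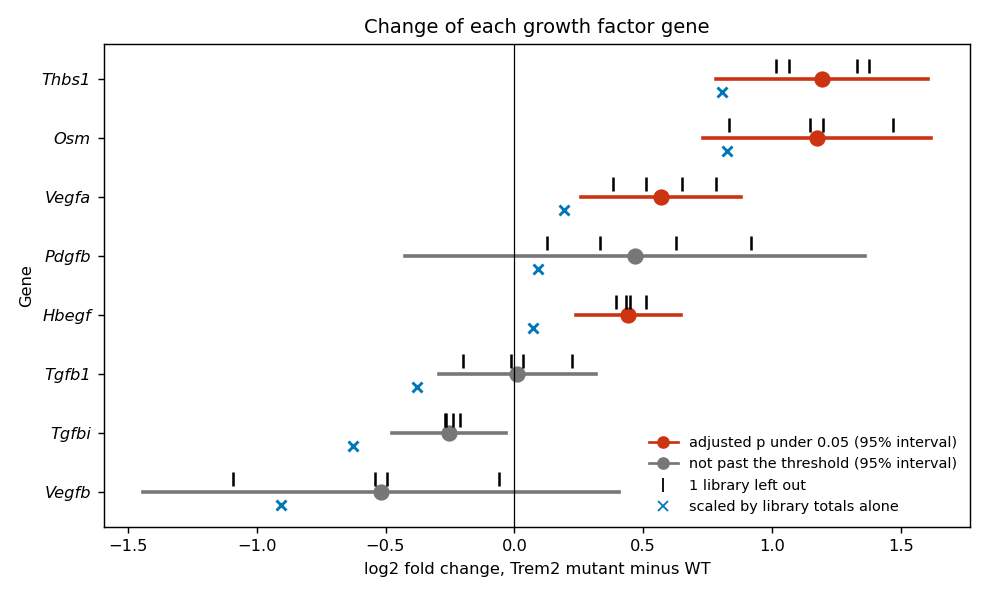
Log2 fold change (Trem2 mutant minus WT) of each growth factor gene, with the 95% interval, the 4 values with 1 library left out (bars above) and the value scaled by library totals alone (cross below). Thbs1, Osm, Vegfa and Hbegf are past the threshold, at 1.19, 1.17, 0.57 and 0.44, and every cross lies to the left of its main value.

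Tgfb1 (ENSMUSG00000002603, chromosome 7, 25687002 to 25705077, plus strand), the main TGF-beta of leukocytes, was well expressed and did not pass. It had 2443 and 2354 reads in WT, and 2516 and 2105 in mutant libraries. Its CPM was 266 and 258 in WT, 301 in Trem2 mutant 1 and 226 in Trem2 mutant 3, so the mutant values lay on either side of the WT values. The log2 fold change was 0.01, with a 95% interval from −0.29 to 0.32 (adjusted p = 0.967), and it ranged from −0.20 without Trem2 mutant 1 to 0.22 without Trem2 mutant 3. Its closest profiles were those of Rhbdf2 and Furin, at distances of 0.113 and 0.142.

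Tgfbi (ENSMUSG00000035493, chromosome 13, 56609523 to 56639562, plus strand) encodes an adhesion protein of the matrix, first known as a TGF-beta-induced gene. It had 11132 and 10806 reads in WT and 8521 and 9193 in mutant libraries. Both mutant values (1021 and 988 CPM) lay below both WT values (1211 and 1183 CPM), a 1.19-fold difference that did not pass (log2 fold change −0.25, 95% interval −0.48 to −0.03, adjusted p = 0.125). With library totals alone it passed as lower (−0.63, adjusted p = 0.00776), −0.23 relative to the median of all genes. Nrros and Pgf had the closest profiles, at distances of 0.0749 and 0.147.

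Most genes around TGF-beta did not pass the threshold. Of 7 tested genes that anchor, process or activate the latent protein, 1 was higher: Ltbp1, which ties it to the matrix, with 40 and 30 reads in WT and 64 and 102 in mutant libraries (2.44-fold, adjusted p = 0.0221). It did not pass with WT 1 left out (log2 fold change 1.50) or WT 2 left out (1.10). Furin, the protease that matures TGF-beta, had 530 ± 0.877 and 509 ± 59.2 CPM, and Nrros, its anchor on myeloid cells, 416 ± 27.3 and 344 ± 12 CPM, and neither passed. At an unadjusted p under 0.05 in the same test, 4 of these 7 were higher, Ltbp1 among them, and 1, Nrros, was lower. The median log2 fold change of the 7 was 0.79. Of 8 tested receptors and SMADs, Tgfbr3 (betaglycan, 2.19-fold, adjusted p = 0.00397) and Acvrl1 (2.28-fold, adjusted p = 0.0283) were higher. The signalling receptor Tgfbr1 was 1.29-fold lower, at 271 CPM in both WT libraries and 198 and 221 CPM in mutant libraries (adjusted p = 0.0308). With WT 1 left out, Acvrl1 (log2 fold change 0.89) and Tgfbr1 (−0.37) did not pass, and Tgfbr1 also failed with WT 2 (−0.37) or Trem2 mutant 1 (−0.28) left out. Tgfbr2 (139 ± 4.47 and 153 ± 14.5 CPM) and Smad4 (101 ± 6.70 and 104 ± 5.20 CPM) did not pass. Skil, a feedback repressor of TGF-beta signalling, had 350 ± 45.1 and 426 ± 69.8 CPM and did not pass.

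Hbegf (ENSMUSG00000024486, chromosome 18, 36504927 to 36515805, minus strand), a membrane-bound ligand of the EGF receptor, had 554 and 556 reads in WT and 657 and 798 in mutant libraries. Its CPM was 60.3 and 60.9 in WT against 78.7 and 85.8 in the mutant libraries, and the groups did not overlap. The 1.36-fold increase (log2 fold change 0.44, SE 0.0876, adjusted p = 0.0167) was the smallest of the 4 that passed. Its size held between 0.40 and 0.51 with each library left out, but leaving out WT 1 (0.43, adjusted p = 0.15) or WT 2 (0.45, adjusted p = 0.11) ended the call. With library totals alone it was 0.07 (adjusted p = 0.734), 0.47 relative to the median of all genes. The profiles of Pdk1 and Pgk1 were the closest, at distances of 0.0856 and 0.136.

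The other 2 tested EGF receptor ligands had few reads. Areg (amphiregulin) had 10 and 19 reads in WT and 34 in each mutant library, and Ereg (epiregulin) 1 and 6 against 13 and 17. Neither passed (adjusted p = 0.0618 and 0.0650). The receptor Egfr had 3 to 17 reads a library and did not pass (adjusted p = 0.0759). Of 5 tested sheddases and their iRhom partners, Adam12 was higher (4 reads in each WT library, 22 and 21 in the mutant libraries, 5.45-fold, adjusted p = 0.0109). It did not pass with WT 1 left out (log2 fold change 2.44) or WT 2 left out (2.45). Adam17, the main sheddase of EGF receptor ligands, did not pass (316 ± 22.1 and 284 ± 6.10 CPM), nor did Adam10 (198 ± 3.68 and 224 ± 5.25 CPM).

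Pdgfb (ENSMUSG00000000489, chromosome 15, 79995874 to 80014977, minus strand) had 21, 12, 23 and 21 reads in WT 1, WT 2, Trem2 mutant 1 and Trem2 mutant 3. The groups overlapped. Its log2 fold change of 0.47 had a 95% interval from −0.42 to 1.36 (adjusted p = 0.453) and ranged from 0.13 without WT 2 to 0.92 without WT 1, so no difference was detectable at this depth. Of 4 tested PDGF ligands, 2 were higher. Pdgfc had 11 and 13 reads in WT and 40 and 35 in mutant libraries (3.23-fold, adjusted p = 0.0164), and Pdgfd 23 and 17 against 52 and 96 (3.79-fold, adjusted p = 0.0108). Pdgfc did not pass with WT 1 left out (log2 fold change 1.57) or WT 2 left out (1.82), nor Pdgfd with WT 2 left out (1.73). Pdgfrb, the receptor on fibroblasts and mural cells, had 14 to 28 reads a library and did not pass (adjusted p = 0.202).

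Of 14 tested other myeloid growth and angiogenic factors, 5 were higher. Anxa1, a regulator of inflammation, went from 346 and 335 CPM to 701 and 657 CPM (2.0-fold, adjusted p = 6.47e-04). Hgf, hepatocyte growth factor, went from 14.9 and 19.0 CPM to 42.4 and 40.9 CPM (2.45-fold, adjusted p = 0.00134). Both calls held with each library left out. Cxcl12 (0.655 ± 0.157 to 2.90 ± 0.303 CPM), Ccn1 (0.872 ± 0.305 to 3.58 ± 0.355 CPM) and Prok2, the neutrophil product Bv8 (0.873 ± 0.00386 to 2.51 ± 0.352 CPM), rose from low levels. None of these 3 passed with WT 1 left out (log2 fold changes 1.90, 2.42 and 1.50) or WT 2 left out (2.38, 1.70 and 1.51). Prok2 also failed with Trem2 mutant 1 (1.37) or Trem2 mutant 3 (1.66) left out. Spp1 (osteopontin, 694 ± 32.4 and 892 ± 74.1 CPM) and Grn (progranulin, 440 ± 4.49 and 485 ± 47.5 CPM), the most abundant of those that did not pass, had mutant values above both WT values.

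Over all family, receptor and hypoxia lists, leaving out the 8 growth factor genes themselves, 28 of 95 tested genes were higher and 2 lower, with a median log2 fold change of 0.40. Among all 14239 tested genes, 9.55% were higher and 3.6% lower, with a median of −0.02. These lists, too, were chosen with earlier results of these data known. Without WT 1, 9 of 100 were higher, and without WT 2, 15 of 100. With library totals alone, 18 of 95 were higher and 9 lower (median 0.02). Over all genes that scaling gave 650 higher and 4365 lower, with a median of −0.40. Besides the HIF targets and Il6ra, the calls of Lif, Il27 and Prok2 ended under it. With DESeq2, 24 were higher and 0 lower, and Adam12, Cxcl12, Il27, Il6ra, Nrp2, Pdk1, Pfkfb4, Prok2 and Tgfbr1 did not pass. The calls of Nrp1, Tgfbr3, Thbs2, Cd47, Hgf, Anxa1 and Egln3 held with each library left out. Vegfc, Vegfd, Itgb6, Itgb8, Btc, Tgfa, Epgn, Erbb4, Comp, Il11, Clcf1, Ctf1 and Bmp2 were listed but not analysed here.

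**Figure D3:**
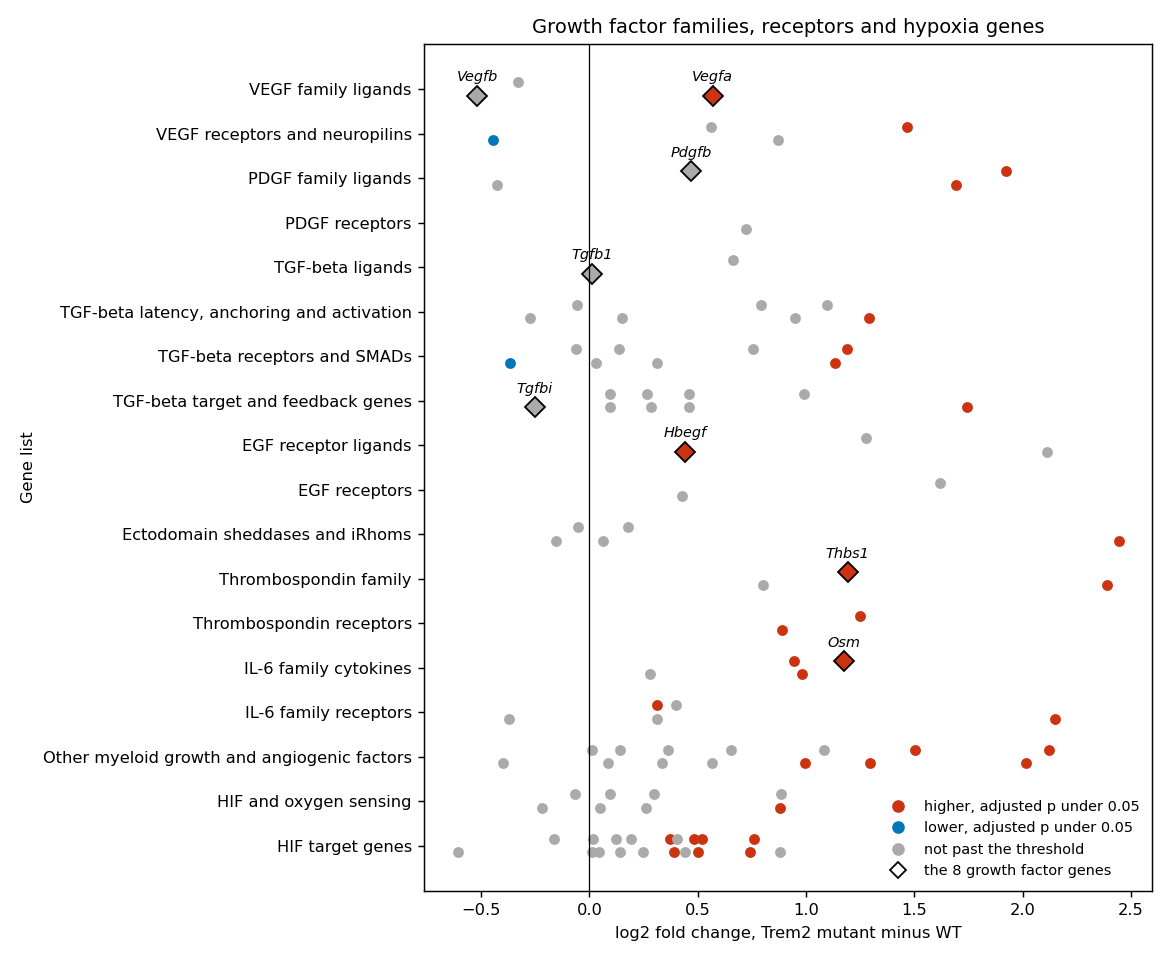
Log2 fold change (Trem2 mutant minus WT) of each tested gene of the family, receptor and hypoxia lists, coloured by the test, with the 8 growth factor genes as labelled diamonds. Thbs2 (2.39) and Adam12 (2.45) lie farthest to the right, while Nrp2 (−0.44) and Tgfbr1 (−0.37) are the lower calls.

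Markers of several cell types moved with genotype in the same libraries. In bulk RNA a change in the number of cells of a type and a change in RNA per cell cannot be told apart. Of 12 tested neutrophil markers, 11 were higher, and their summed level was 7350 to 7494 CPM in WT and 27345 to 32982 CPM in mutant libraries. Of 8 monocyte markers, 6 were higher (2437 to 2802 CPM in WT, 8849 to 9265 CPM in mutant libraries), or 3 without WT 1. Of 9 macrophage markers, 5 were higher, or 1 without WT 1, but their summed level overlapped (1430 to 1539 and 1403 to 1615 CPM). All 6 tested eosinophil markers were higher (72.5 to 73.4 and 161 to 200 CPM), Ear1 from 0 reads in both WT libraries, but 3 passed without WT 1 and 3 without WT 2. The part of these cells in the increases of Thbs1, Osm, Vegfa and Hbegf was not tested.

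Cells outside the myeloid lineage that make these factors were also measured. Platelets carry Thbs1, Tgfb1 and Pdgfb. Of 10 tested platelet and megakaryocyte markers, 0 were higher and 1, Itgb3, was lower (edgeR quasi-likelihood test; 1 higher and 1 lower at an unadjusted p under 0.05, 0 higher and 1 lower by DESeq2 and by limma-voom). Without Trem2 mutant 3, 1 was higher. Their summed level was 176 to 184 CPM in WT and 111 to 133 CPM in mutant libraries, and Itgb3, which other cells also express, set that difference (119 ± 0.402 and 57.3 ± 5.75 CPM). The other 11 markers, summed after these values were seen, overlapped, at 56.8 and 65.8 CPM in WT against 71.5 and 58.1 CPM in mutant libraries. Of the platelet chemokines, Pf4 had 11.9 and 13.8 CPM in WT against 23.4 and 16.1 CPM in mutant libraries, and Ppbp had 158 and 167 reads against 125 and 132 reads, and neither passed. Of 7 tested fibroblast and mural markers, 3 were higher, all collagens. The summed level of the list was 180 to 239 CPM in WT and 464 to 516 CPM in mutant libraries. Defining fibroblast genes had few reads, with both mutant values above both WT values. Pdgfra had 4 and 7 reads in WT against 9 and 8, Lum 2 and 2 against 4 and 8, and Dcn 4 and 13 against 19 and 40 (3.53-fold, adjusted p = 0.0686). Of 3 tested endothelial markers Pecam1, which leukocytes also express, was higher (1.44-fold, adjusted p = 0.0391), and it did not pass with either WT library left out. Cdh5, which defines endothelium, had 1 and 2 reads in WT and 7 and 4 in mutant libraries. Of the epithelial markers, Cdh1 was lower (155 ± 5.47 to 83.8 ± 1.75 CPM), while Epcam had 3 to 11 reads and Krt8 0 to 5 reads a library. As the lowest total over any analysed gene was 11 reads, no analysed marker could be at 0 in all 4 libraries. Of the fibroblast, endothelial and epithelial markers listed, Rgs5, Tek, Emcn, Cldn5, Krt19, Cldn4 and Krt5 were not analysed here. The part of platelets and stromal cells in the changes of Thbs1, Thbs2, Pdgfc, Pdgfd and Cxcl12 was not tested.

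**Figure D4:**
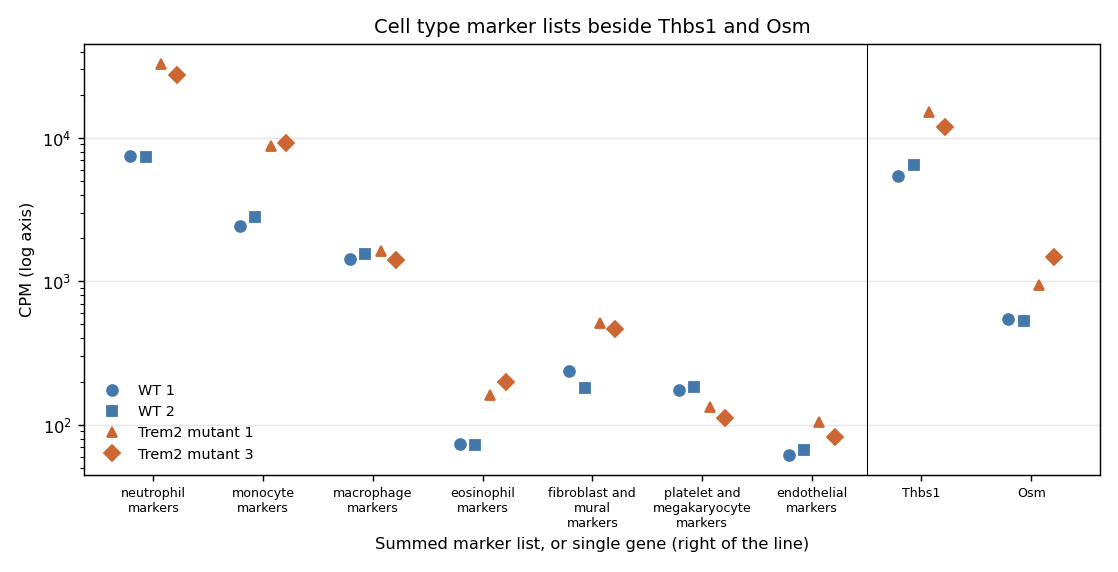
Summed CPM (log axis) of cell type marker lists in each of the 4 libraries, and the CPM of Thbs1 and Osm to the right of the line. Neutrophil and monocyte sums lie higher in the mutant libraries, as Thbs1 and Osm do, while the macrophage sums, which mix genes of both directions, overlap. The monocyte sums lean on Cd14 and, in mutant libraries, Chil3. The platelet sums lie lower through Itgb3, and without it they overlap (56.8 to 65.8 CPM in WT, 58.1 to 71.5 CPM in mutant libraries).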

How the data were processed

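For 4 libraries the authors deposited a table of raw read counts by Ensembl gene ID, not normalized. The submitters' processing notes name STAR 2.5.2a, FastQC, DESeq2 and the build GRCm38 (mm10). Total RNA had its ribosomal RNA removed, per the labels' protocols. In the sources used here no counter, strandedness or annotation is given. Symbols, positions and exon lengths come from GENCODE M21, which held 17422 of the 17476 IDs. The lowest total over a gene was 11 reads. The growth factor genes and gene lists were chosen with earlier results of these data known.

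Genes were filtered with filterByExpr, scaled with TMM and compared with edgeR 4.0.16 (R 4.3.3; glmQLFit by default settings and a two-sided glmQLFTest, genotype as the only term, Benjamini-Hochberg over 14239 genes, threshold 0.05). With 2 residual and 5.71 prior degrees of freedom, the spread was shared across genes. Each SE is the log2 fold change over the root of F. Listed genes were named if past the threshold, with up to 2 others per list by mean CPM, and 1 listed gene is not reported here. Likeness is the Euclidean distance between centred log2 CPM profiles. Column number 3 matches no label number, so that library was used as a mutant library without one. Library pairs differed in their counts and were kept as separate samples.

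Alternatives were RLE, upper quartile and library-total scaling, no filter or a stricter one (10 reads in 2 libraries and a mean of 1 CPM), the bias-adjusted quasi-likelihood form, DESeq2 1.42.0, limma-voom (limma 3.58.1), leaving out 2622 noncoding and mitochondrial genes, and leaving out each library, where the lone library is taken to vary as the other genotype does.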

Additional observations from a re-analysis of the deposited data

How the results depend on the processing

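The counts of the 8 growth factor genes were 4 higher and 0 lower under RLE and upper quartile scaling, no filter, the stricter filter, the bias-adjusted form, DESeq2, limma-voom and without noncoding and mitochondrial genes. With library totals alone they were 2 higher and 1 lower. With 1 library left out, 1 to 4 were higher. Over all genes, 1360 were higher and 513 lower. These counts were 650 and 4365 with library totals alone, 198 lower with DESeq2, and 489 to 2090 higher and 92 to 912 lower with 1 library left out. Log2 fold changes changed sign for genes not past the threshold and for Il6ra and Pfkfb4, which were. With library totals alone they were −0.38 for Tgfb1, −0.19 for Adam10, −0.36 for Aldoa, −0.32 for Arnt, −0.24 for Grn, −0.082 for Hif1a, −0.10 for Il6, −0.060 for Il6ra, −0.13 for Ldha, −0.068 for Lifr, −0.0052 for Pfkfb4, −0.074 for Skil, −0.34 for Smad4, −0.017 for Spp1 and −0.24 for Tgfbr2. With upper quartile scaling they were −0.025 for Tgfb1, −0.021 for Aldoa and −0.0061 for Smad4, and with limma-voom −0.0046 for Tgfb1. With 1 library left out Tgfb1 ranged from −0.20 to 0.22, Aldoa from −0.058 to 0.11, Furin from −0.17 to 0.075 and Smad4 from −0.036 to 0.098. No paired analysis was possible because the columns share only the number 1 between genotypes. With 2 libraries a genotype, no sample can be singled out within its group, and at 12 to 26 reads a library changes in Vegfb and Pdgfb were measured with wide intervals.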
